A study of Homo sapiens with 27 samples.

Results

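The homologous recombination and Fanconi repair genes described here are 37 genes listed by name for their known roles, a list drawn up with earlier results of these data known. All 37 were found by symbol among the 58721 genes of the count table, and all 37 passed the filter on low counts that left 25199 genes for the tests. They fall into 7 role groups: BRCA1, BRCA2 and their partners (4 genes), strand exchange factors (9), genes of break sensing, end resection and unwinding (6), checkpoint kinases (4), the Fanconi core complex with its E2 enzyme (9), FANCD2, FANCI and BRIP1 (3), and POLQ with HELLS (2). RNA was sequenced from 27 libraries of A375, a human melanoma cell line that carries an activating BRAF mutation. Control cells carried a guide RNA against GFP, which has no target in the human genome; their genotype label is WT. The other cells were TADA2B KO cells made with guide 1 or with guide 2, and the TADA2B protein belongs to the histone-acetylating SAGA complex. Each of the 3 cell populations received DMSO, the solvent, or 20 nM trametinib, which inhibits MEK, or 1 µM vemurafenib, which inhibits mutant BRAF, for 24 h, with 3 libraries per group. All cells were grown in DMEM with 10% FBS. The labels name neither clones nor pools for the knockout, and they do not state that the 3 libraries of a group are separate cultures. Each p-value therefore reflects the spread between libraries alone, and that spread may be technical.

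Homologous recombination repairs a broken chromosome by copying the intact sister: the ends are trimmed to single strands, BRCA1, PALB2 and BRCA2 load a recombinase on them, and helper proteins drive the strand into the sister duplex. The Fanconi pathway acts on cross-links between the DNA strands: a core complex attaches ubiquitin to FANCD2 and FANCI, and the cut ends are then passed to recombination. Both work mainly in S and G2 phase, and many of their genes are known targets of E2F transcription factors and are transcribed more in dividing cells.

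The promoters are shown first, because many of these genes moved together and E2F sites are a known feature of genes transcribed at the entry to S phase. Promoter sequences came from RefSeq (GRCh38.p14), as windows from 250 bases before to 50 bases after each annotated start, and 34 of the 37 genes had a window. The E2F motif was searched as TTTCCCGC, TTTCGCGC, TTTGCCGC or TTTGGCGC on both strands, and it was found for 7 of the 34 genes (20.6%) and for 1090 of all 27305 genes in the table (3.99%). Capitals below mark the motif as read on the gene's strand, within 28 bases. Positions are EXO1 chr1:241848198-241848225, plus strand; FANCD2 chr3:10026425-10026452, plus strand; XRCC2 chr7:152676103-152676130, minus strand. FANCC held its sites at chr9:95317864-95317891, minus strand, and at chr9:95317738-95317765, minus strand. HELLS held its sites at chr10:94545702-94545729, plus strand, and at chr10:94545770-94545797, plus strand. FANCA held a site at chr16:89816802-89816829, minus strand, and DMC1 at chr22:38570172-38570199, minus strand, where a further match on the other strand overlaps it.
EXO1: aaggtcagccTTTCGCGCgctgtgtagg
FANCD2: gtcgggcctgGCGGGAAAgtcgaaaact
XRCC2: ggcgttggtgGCGGGAAAgttgagtctc
FANCC, upstream site: cggggcttccGCGCGAAAccgggaacac
FANCC, downstream site: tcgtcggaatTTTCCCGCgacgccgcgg
HELLS, upstream site: accgcaagctGCGCCAAAtctcgcgcag
HELLS, downstream site: atgacaggatTTTCCCGCgaaggagaag
FANCA: ctacaccgcgGCGGCAAAgccaaacgca
DMC1: gccctcctcgTTTGGCGCcaaaccctgt
With trametinib in control cells, the 7 genes with the motif had a median log2 fold change of -2.73, and the 27 without it a median of -1.02. Genes without these letters also fell far, as the next sequences show. A match is a description of the letters, not evidence of binding, and the sites were not tested here.

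The whole 250 bases before the start are shown for the 2 genes with the largest fall under trametinib in control cells, RAD54L and FANCB, and for the 2 with the smallest change, RAD51B and ATM, among genes with a window. Beside the E2F motif, the CHR element of cell cycle genes (TTTGAA) and the CCAAT box (CCAAT) were searched on both strands, and capitals mark any match. RAD54L lies at chr1:46247438-46247687, plus strand; FANCB at chrX:14873070-14873319, minus strand; RAD51B at chr14:67823291-67823540, plus strand; ATM at chr11:108222817-108223066, plus strand. RAD54L, RAD51B and ATM have 2 starts in the table, and the window of the start listed first is printed. For RAD51B that start lies downstream of the gene start in GENCODE (chromosome 14, position 67819779), so the window may not be its main promoter.
RAD54L: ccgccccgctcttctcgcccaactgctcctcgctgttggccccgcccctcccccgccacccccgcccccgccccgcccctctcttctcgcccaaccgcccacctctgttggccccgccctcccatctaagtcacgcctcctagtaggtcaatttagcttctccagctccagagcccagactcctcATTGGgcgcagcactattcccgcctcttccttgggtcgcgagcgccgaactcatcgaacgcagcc
FANCB: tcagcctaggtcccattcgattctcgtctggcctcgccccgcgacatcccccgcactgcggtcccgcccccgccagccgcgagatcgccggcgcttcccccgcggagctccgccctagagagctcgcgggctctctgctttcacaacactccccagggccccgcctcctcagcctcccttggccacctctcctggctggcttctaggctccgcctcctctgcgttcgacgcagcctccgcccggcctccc
RAD51B: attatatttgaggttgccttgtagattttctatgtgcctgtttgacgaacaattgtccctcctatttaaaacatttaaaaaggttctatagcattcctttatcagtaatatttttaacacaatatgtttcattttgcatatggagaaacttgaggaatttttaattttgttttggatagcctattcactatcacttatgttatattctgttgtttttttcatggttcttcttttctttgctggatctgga
ATM: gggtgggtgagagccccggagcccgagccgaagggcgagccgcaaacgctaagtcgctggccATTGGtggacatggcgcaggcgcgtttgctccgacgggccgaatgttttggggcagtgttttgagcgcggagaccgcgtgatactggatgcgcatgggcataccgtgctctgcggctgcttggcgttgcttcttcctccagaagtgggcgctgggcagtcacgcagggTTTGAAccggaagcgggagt
RAD54L held a CCAAT box, FANCB and RAD51B held none of the motifs, and ATM held a CCAAT box and a CHR element. RAD54L and FANCB, the 2 genes with the strongest falls under trametinib, held no E2F letters in this stretch, and ATM held the other motifs. Whether any of these motifs bears on the drug responses was not tested. Among all 34 genes with a window of 300 bases, the CHR element was found for 5 (14.7%, against 18.2% of all genes) and the CCAAT box for 16 (47.1%, against 39.7%). The 5 genes with a CHR element had a median log2 fold change of -2.21 with trametinib and the rest -1.48, and for the CCAAT box these medians were -1.63 and -1.16.

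Library totals lay between 67502300 and 92513726 counts, and the common biological coefficient of variation was 4.02%, so small changes passed the test and sizes are given beside every count. Levels are in CPM, counts scaled to library totals after TMM correction, with the SD over 3 libraries, and a log2 fold change carries its standard error after the ± sign; p-values are from edgeR's quasi-likelihood test, adjusted by Benjamini-Hochberg over all genes tested. In DMSO, TADA2B itself stood at 31.2 CPM ± 0.931 (SD, n = 3) in control libraries, at 30.4 ± 0.773 for guide 1 and at 28.6 ± 1.21 for guide 2; an edited gene can keep its transcript, so these levels do not check the genotype label. The melanocyte lineage factors SOX10 (267 to 1120 CPM) and MITF (52.1 to 152 CPM) were present in all 27 libraries, but not at equal levels. In DMSO SOX10 stood at 884 CPM ± 33.4 in control libraries, at 459 ± 6.37 for guide 1 and at 274 ± 6.84 for guide 2. MITF stood at 79.1 ± 0.408, 58.8 ± 0.589 and 54.4 ± 2.94 in the same order. Of the pigment genes, PMEL (1.15 to 2.34 CPM), TYRP1 (0.0144 to 2.27), MLANA (0.694 to 2.08) and TYR (0 to 0.281) were low, but DCT ranged from 0.128 to 1060 CPM. In control cells DCT rose by 10.12 ± 0.057 on the log2 scale with trametinib and by 10.04 ± 0.057 with vemurafenib, and it was lower in knockout cells in DMSO (-2.07 ± 0.15); the 8 melanocyte markers summed to 344 to 2370 CPM. The part of this lineage change in the repair gene results was not tested. Summed markers of other cells lay at 16.3 to 81.8 CPM for fibroblasts, 44.7 to 63.6 for keratinocytes, 7.32 to 36.6 for leukocytes and 8.43 to 23.4 for endothelium. These lists were uneven. The keratinocyte gene KRT1 was at 0 in every library, but KRT10 lay at 37.4 to 55.1 CPM and KRT14 at 3.32 to 15.0. The T cell gene CD3E was at most 0.0889, but the leukocyte marker LYZ lay at 4.55 to 35.8. LUM (6.21 to 45.9) and COL1A1 (5.4 to 28.8) of the fibroblast list and KDR (1.69 to 17.0) of the endothelial list were also detected.

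In control cells in DMSO the 37 genes spanned a 167-fold range of level per kilobase of transcript, with a median of 8.8 CPM per kb. UBE2T, the E2 enzyme that hands ubiquitin to FANCD2, was the highest at 70.4 CPM per kb ± 1.53. NBN, a subunit of the break-sensing complex, followed with 29 ± 0.54, and FANCI, the partner of FANCD2, with 26.9 ± 0.347. EXO1, an exonuclease that trims broken ends, and HELLS, a chromatin remodeller, came next at 22.8 ± 0.28 and 22.8 ± 0.959, a pair that did not differ beyond its spread. BRCA1 stood at 12.0 ± 0.213 and BRCA2 at 3.01 ± 0.152 CPM per kb. At the low end were RAD51B (1.57 ± 0.233), RAD50 (0.667 ± 0.0239) and DMC1 (0.422 ± 0.0654), a recombinase known from meiosis. RAD50 shares 79.7% of its exon bases with a readthrough gene on the same strand, and how such reads were assigned is not given in the sources used here, so its level may be understated.

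**Figure D1:**
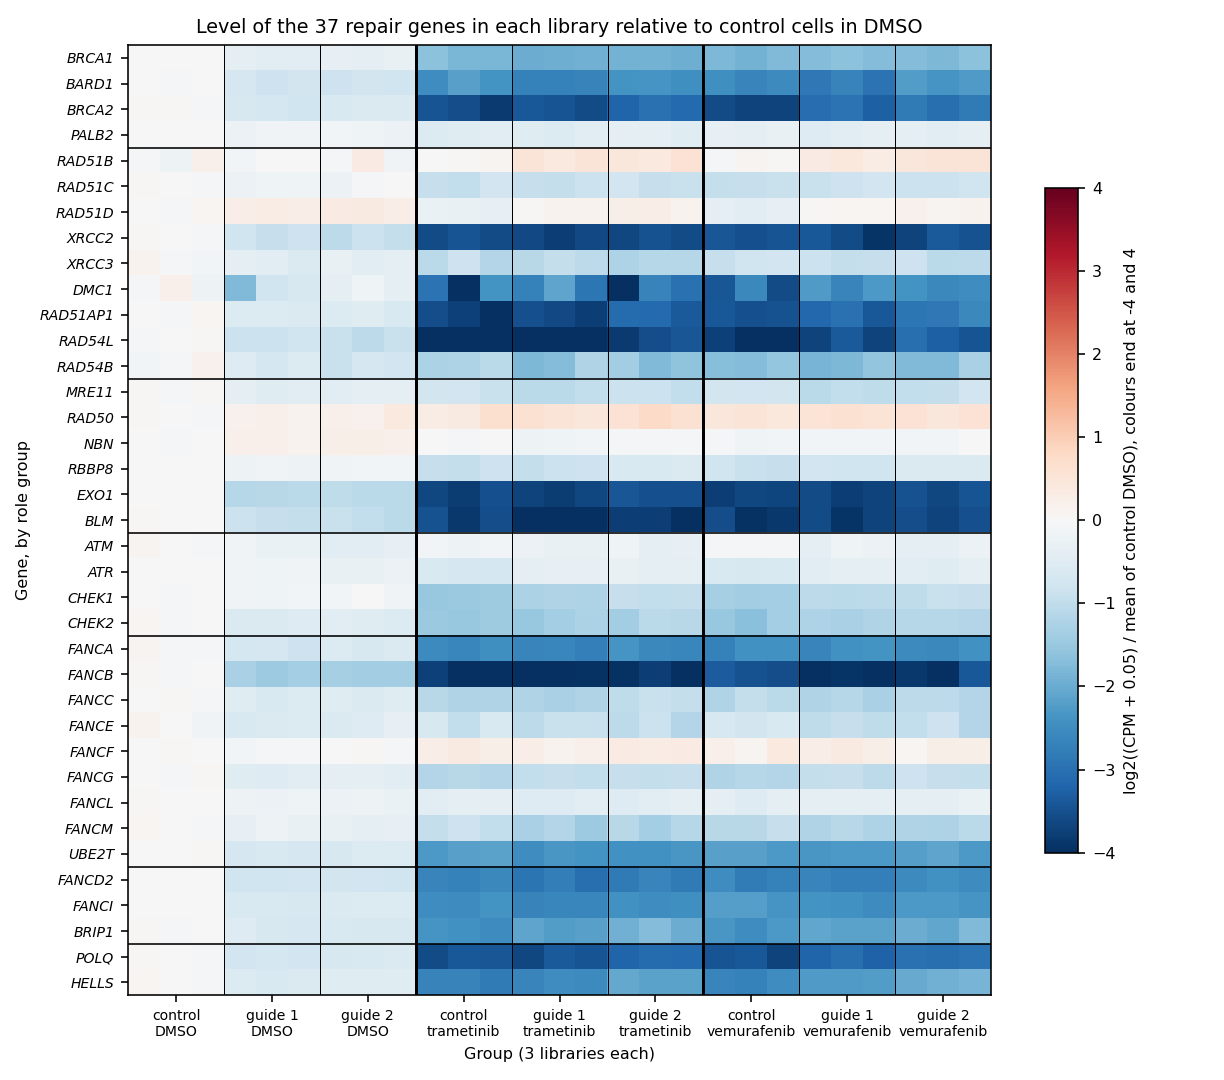
Level of each of the 37 genes (rows, in the 7 role groups separated by lines) in each of the 27 libraries (columns, 3 per group), as log2 of CPM + 0.05 relative to the mean of control cells in DMSO; colours end at -4 and 4. The libraries given a drug are blue for most genes, as 33 of 37 fell with each drug in control cells. RAD50 and FANCF are above control DMSO there, in pale red on this scale. In knockout groups given a drug, RAD51B (127% to 142% of control DMSO) and RAD51D (105% to 115%) were above it as well.

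Trametinib lowered most of these genes in control cells. Of 37 genes, 33 fell and 2 rose, against 32.5% and 36.4% of all genes tested, and the median log2 fold change was -1.48 against 0.06 over all genes. The fall was at least 2-fold for 23 of the 37, against 12.4% of all genes: 9 fell at least 8-fold, 14 fell 2-fold to 8-fold and 10 fell less than 2-fold. In each of the 35 called genes the 3 trametinib libraries lay wholly apart from the 3 DMSO libraries. How often this holds for called genes over all genes was not computed, here or for the counts of such genes below. Vemurafenib gave 33 falls and 2 rises as well, against 31.6% and 35.7% of all genes, with a median of -1.52 and 23 falls of at least 2-fold against 11.3% of all genes. Both drug comparisons share the DMSO libraries, so their values are given side by side and not as independent results.

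Genes of the cell cycle fell beside them. All 33 DNA replication genes fell with trametinib (median log2 fold change -2.19) and with vemurafenib (-2.02), and all 21 mitosis genes fell with medians of -3.12 and -2.94. MKI67, a marker of dividing cells, went from 619 CPM ± 17.4 to 64.3 ± 2.39 with trametinib and 79.1 ± 4.65 with vemurafenib. In bulk RNA, fewer cells in S and G2 phase and less RNA of these genes per cell cannot be told apart.

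BRCA1, BRCA2 and their partners fell in all 4 cases, by unequal amounts. BRCA2 (ENSG00000139618, hg38 chr13:32315474-32400266, plus strand), which loads the recombinase on resected ends, stood at 37.3, 37 and 34.0 CPM in control DMSO libraries, at 3.23, 3.01 and 2.5 with trametinib and at 2.98, 2.75 and 2.72 with vemurafenib. Every drug library lay far below every DMSO library. BRCA2 fell 12.3-fold with trametinib (log2 -3.63 ± 0.08, adjusted p = 1.17e-37) and 12.8-fold with vemurafenib (-3.68 ± 0.081). BRCA1 (ENSG00000012048, hg38 chr17:43044295-43170245, minus strand), a ubiquitin ligase that favours end trimming, was the higher of the pair in counts and fell less. It stood at 88.4, 87.3 and 85.4 CPM in DMSO, at 27.8, 24.3 and 24.7 with trametinib and at 25.2, 23.6 and 25.6 with vemurafenib. The drug libraries of both groups clustered together, apart from DMSO. The falls were 3.4-fold (log2 -1.76 ± 0.044) and 3.5-fold (-1.81 ± 0.044). BARD1, the obligate partner of BRCA1, fell further than BRCA1, 5.13-fold with trametinib (-2.36 ± 0.084) and 5.89-fold with vemurafenib (-2.56 ± 0.086). PALB2, the bridge between BRCA1 and BRCA2, changed least, to 71.2% of its DMSO level with trametinib (-0.49 ± 0.046) and 78.8% with vemurafenib (-0.34 ± 0.045).

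The strand exchange factors held both the strongest fall of all 37 genes and a gene with no called change. RAD54L (ENSG00000085999, hg38 chr1:46247688-46278473, plus strand), a DNA motor that helps the strand invade, stood at 24.9, 26.0 and 26.8 CPM in DMSO, at 1.6, 1.28 and 1.6 with trametinib and at 1.89, 1.39 and 1.46 with vemurafenib. It kept 5.76% of its level with trametinib, a 17.4-fold fall (log2 -4.12 ± 0.11, adjusted p = 9.73e-35), and 6.13% with vemurafenib (-4.03 ± 0.11). LRRC41 overlaps 25.1% of the exon bases of RAD54L on the opposite strand and moved by 0.2 and 0.26, away from the direction of RAD54L. RAD51AP1, which stimulates strand invasion, fell 13.7-fold with trametinib (-3.77 ± 0.093) and 11.1-fold with vemurafenib (-3.48 ± 0.09).

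XRCC2, a paralogue of the recombinase, stood at 31.1, 29.9 and 28.9 CPM in DMSO, at 2.47, 2.71 and 2.46 with trametinib and at 2.73, 2.6 and 2.72 with vemurafenib, falls of 11.8-fold (log2 -3.56 ± 0.088) and 11.2-fold (-3.48 ± 0.087). Its sister paralogues moved far less. RAD51C fell 1.86-fold (-0.9 ± 0.056) and 1.89-fold (-0.92 ± 0.056), RAD51D 1.22-fold (-0.29 ± 0.051) and 1.29-fold (-0.37 ± 0.051), and XRCC3 2.03-fold (-1.02 ± 0.087) and 1.78-fold (-0.83 ± 0.086). XRCC3 shares 76.7% of its exon bases with KLC1 on the opposite strand; KLC1 changed by -0.31 with trametinib, and the strand setting of the counting is not given in the sources used here. RAD51B did not pass the test with either drug: it stood at 3.97, 3.53 and 4.72 CPM in DMSO, at 3.99, 4.22 and 4.36 with trametinib and at 3.84, 4.4 and 4.23 with vemurafenib (log2 0.04 ± 0.11, adjusted p = 0.741, and 0.03 ± 0.11, adjusted p = 0.816). Its 3 groups overlapped. The other motor, RAD54B, fell 2.32-fold (-1.21 ± 0.13) and 3.21-fold (-1.68 ± 0.14), and 59.1% of its exon bases are shared with FSBP on the same strand. DMC1 had few reads, with 70, 90 and 60 counts in the DMSO libraries, 7, 1 and 11 with trametinib and 4, 9 and 3 with vemurafenib, and its falls of -3.61 ± 0.44 and -3.83 ± 0.45 on the log2 scale carry the widest errors of the 37 genes.

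Among the 6 genes of break sensing, end resection and unwinding, EXO1 and BLM had the largest falls with each drug. EXO1 (ENSG00000174371, hg38 chr1:241847967-241895148, plus strand) stood at 78.9, 78.2 and 80.1 CPM in DMSO, at 6.31, 5.65 and 6.87 with trametinib and at 5.77, 6.35 and 6.11 with vemurafenib. The drug libraries lay close together, far below the DMSO libraries, and EXO1 fell 12.6-fold (log2 -3.66 ± 0.059) and 13.0-fold (-3.7 ± 0.06). BLM, a helicase that unwinds recombination intermediates, fell 12.6-fold (-3.66 ± 0.088) and 13.8-fold (-3.78 ± 0.09). RBBP8, known as CtIP, which starts end trimming, fell 1.88-fold (-0.91 ± 0.04) and 1.81-fold (-0.86 ± 0.04).

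The 3 subunits of the MRE11-RAD50-NBN complex, which binds broken ends, did not move together. MRE11, its nuclease, fell 1.74-fold with trametinib (log2 -0.8 ± 0.047) and 1.69-fold with vemurafenib (-0.76 ± 0.047). RAD50, its ATPase, rose: it stood at 5.72, 5.58 and 5.32 CPM in DMSO, at 6.88, 7.08 and 8.65 with trametinib and at 7.66, 8.01 and 7.36 with vemurafenib, with all 6 drug libraries above all DMSO libraries. The rise was 1.36-fold (0.44 ± 0.083, adjusted p = 6.58e-06) and 1.39-fold (0.47 ± 0.083, adjusted p = 2.19e-06). As 79.7% of the exon bases of RAD50 are shared with a readthrough gene on the same strand, its counts may come from only part of the gene. That readthrough gene had 0.0285 CPM in control DMSO libraries. The bearing of this overlap on the changes of RAD50, here and below, was not tested. NBN, which recruits ATM, stood at 136, 132 and 137 CPM in DMSO, at 134, 128 and 134 with trametinib and at 132, 122 and 125 with vemurafenib. It did not pass the test with trametinib (-0.03 ± 0.033, adjusted p = 0.348) and fell slightly with vemurafenib (-0.1 ± 0.033, adjusted p = 0.00656), a call that did not hold when replicate 2 of the control vemurafenib libraries was left out (-0.074).

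Of the checkpoint kinases, the 2 effector kinases fell more than the 2 kinases that activate them. CHEK1 (ENSG00000149554, hg38 chr11:125625136-125676255, plus strand), which stops the cell cycle when forks stall, stood at 70.9, 68.1 and 70.8 CPM in DMSO, at 24.5, 24.9 and 25.9 with trametinib and at 27.6, 26.5 and 27.4 with vemurafenib, falls of 2.79-fold (log2 -1.48 ± 0.04) and 2.57-fold (-1.36 ± 0.04). CHEK2, its counterpart downstream of ATM, fell 2.81-fold (-1.49 ± 0.074) and 2.87-fold (-1.52 ± 0.074). ATR, the kinase of stalled forks, went from 102, 104 and 105 CPM to 68.3, 64.5 and 64.2 with trametinib and 68.1, 65.8 and 68.0 with vemurafenib, to 63.3% and 64.9% of its DMSO level. ATM, the kinase of broken ends, changed little: 124, 114 and 109 CPM in DMSO, 108, 101 and 107 with trametinib, and 109, 111 and 110.0 with vemurafenib. Trametinib libraries of ATM lay just below the DMSO libraries (-0.14 ± 0.048, adjusted p = 0.0128), and the call did not hold when replicate 1 of the control DMSO libraries (-0.085) or replicate 2 of the trametinib libraries (-0.105) was left out, or with a filter of 1 CPM (-0.097). With vemurafenib ATM did not pass the test (-0.07 ± 0.048, adjusted p = 0.175), but did without replicate 3 in DMSO (-0.115) and when only the groups compared were fitted (-0.088).

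In the Fanconi core complex, 8 of 9 genes fell with each drug and FANCF rose. FANCB (ENSG00000181544, hg38 chrX:14835961-14873069, minus strand), a scaffold subunit, stood at 24.5, 23.0 and 24.2 CPM in DMSO, at 1.76, 1.45 and 1.47 with trametinib and at 2.35, 2.07 and 1.99 with vemurafenib. FANCB fell 15.3-fold (log2 -3.94 ± 0.11) and 11.2-fold (-3.48 ± 0.11), the largest fall in the complex. FANCA fell 5.84-fold (-2.55 ± 0.077) and 5.78-fold (-2.53 ± 0.077), and UBE2T 4.63-fold (-2.21 ± 0.051) and 4.65-fold (-2.22 ± 0.051).

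The remaining subunits of the complex moved by 2.26-fold or less. FANCC fell 2.26-fold and 2.12-fold, FANCG 2.22-fold and 2.26-fold, FANCM, the motor that anchors the complex on DNA, 1.9-fold and 2.06-fold, and FANCE 1.65-fold and 1.59-fold. FANCL, the ubiquitin ligase of the complex, kept 76.4% of its level with trametinib (log2 -0.39 ± 0.05) and 74.6% with vemurafenib (-0.42 ± 0.05). FANCF (ENSG00000183161, hg38 chr11:22622890-22625841, minus strand), an adaptor subunit, stood at 12.5, 13.2 and 12.6 CPM in DMSO, at 15.2, 16.5 and 15.1 with trametinib and at 14.6, 13.9 and 16.6 with vemurafenib, so every drug library was above every DMSO library. It rose 1.22-fold (0.29 ± 0.06, adjusted p = 3.89e-05) and 1.18-fold (0.24 ± 0.061, adjusted p = 0.000529). GAS2 overlaps 11.3% of the exon bases of FANCF on the opposite strand and rose by 2.03 on the log2 scale with each drug, from 0.848 CPM ± 0.218 (n = 3); its part in the FANCF result was not tested.

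FANCD2, FANCI and BRIP1, and POLQ with HELLS, all fell at least 4-fold. FANCD2 (ENSG00000144554, hg38 chr3:10026414-10101930, plus strand), the protein that receives ubiquitin at a cross-link, stood at 63.4, 64.4 and 66 CPM in DMSO, at 10.3, 9.87 and 10.7 with trametinib and at 11.5, 9.25 and 9.89 with vemurafenib. The drug libraries lay together and apart from DMSO, a fall of 6.27-fold (log2 -2.65 ± 0.061) and 6.3-fold (-2.66 ± 0.061). FANCI fell 5.55-fold (-2.47 ± 0.041) and 4.78-fold (-2.26 ± 0.04), and BRIP1, a helicase that binds BRCA1, 5.44-fold (-2.44 ± 0.072) and 5.2-fold (-2.38 ± 0.072). POLQ, the polymerase of an end-joining route that can stand in for recombination, fell 11.2-fold (-3.48 ± 0.075) and 11.5-fold (-3.52 ± 0.075). HELLS fell 6.62-fold (-2.73 ± 0.054) and 6.05-fold (-2.6 ± 0.053).

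**Figure D2:**
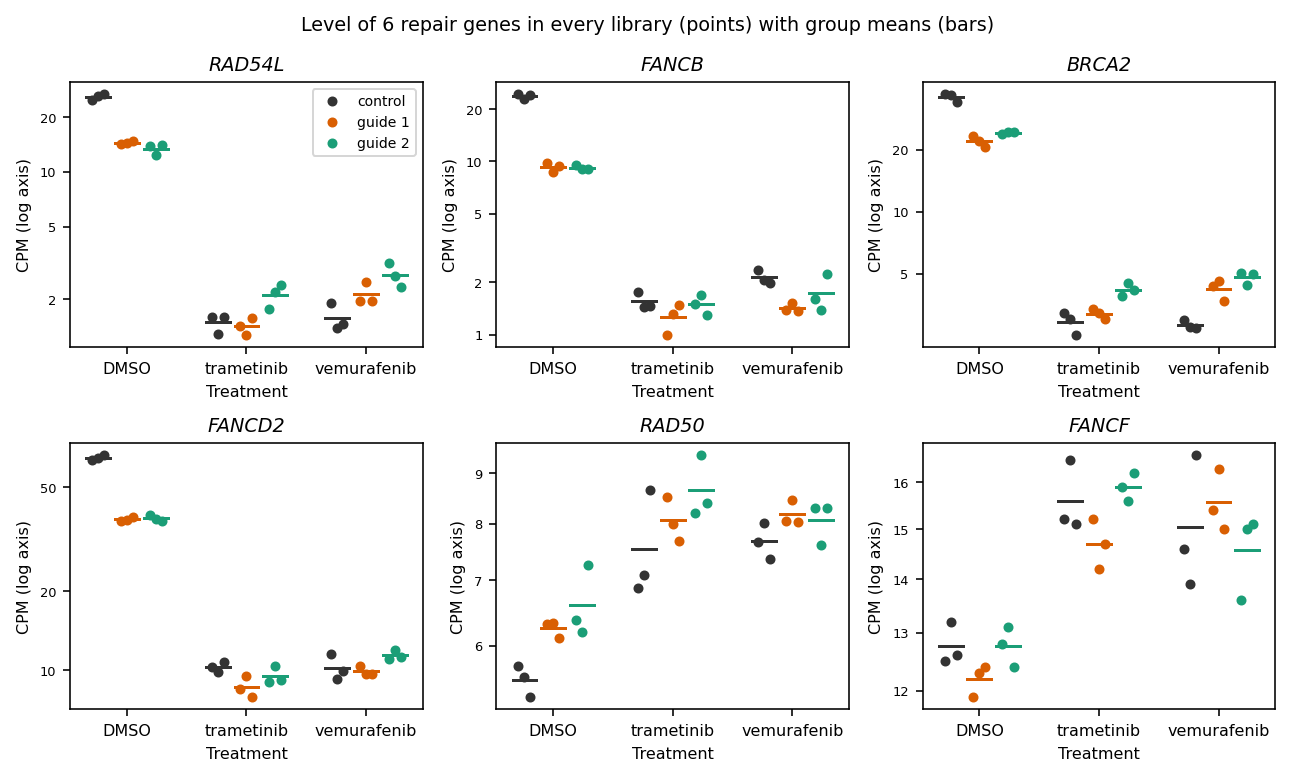
Level in CPM (log axis) of 6 genes in every library by treatment, with control cells, guide 1 and guide 2 in separate colours and a bar at each group mean. RAD54L, FANCB, BRCA2 and FANCD2 drop from DMSO to either drug, and in DMSO the knockout libraries lie below control; RAD50 and FANCF rise with the drugs.

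Other DNA repair lists had smaller median changes than these 37 genes. Among 39 other recombination and Fanconi genes, 29 fell and 7 rose with trametinib (median log2 fold change -0.38), led by RMI2, a partner of BLM (-2.8 ± 0.087), and EME1, a nuclease subunit (-2.47 ± 0.099). Of 19 other checkpoint genes 15 fell (median -1.13), with CDC25A, a phosphatase that starts S phase (-3.94 ± 0.083), and CLSPN, which helps ATR activate CHEK1 (-3.93 ± 0.063), lowest. Mismatch repair had 5 of 7 genes lower (median -0.33) and base excision repair 10 of 15 (median -0.29; NEIL3 -3.76 ± 0.12, PARP2 -1.47 ± 0.062). Non-homologous end joining, which rejoins ends without a template, had 5 of 10 lower and 4 higher (median -0.18; PRKDC -1.18 ± 0.028, PAXX -1.02 ± 0.071), and nucleotide excision repair 7 of 14 lower and 4 higher (median -0.18). DNA replication genes, with MCM10 (-6.14 ± 0.1) and CDC45 (-4.53 ± 0.12), and mitosis genes, with UBE2C (-3.71 ± 0.054) and TTK (-3.54 ± 0.065), had larger median falls than the 37 genes, as given above. Of 19 E2F, RB and DREAM factors, 15 fell and 3 rose (median -0.81), with E2F2 (-5.61 ± 0.14) and E2F1 (-4.5 ± 0.082) lowest. These lists were not tested against each other.

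**Figure D3:**
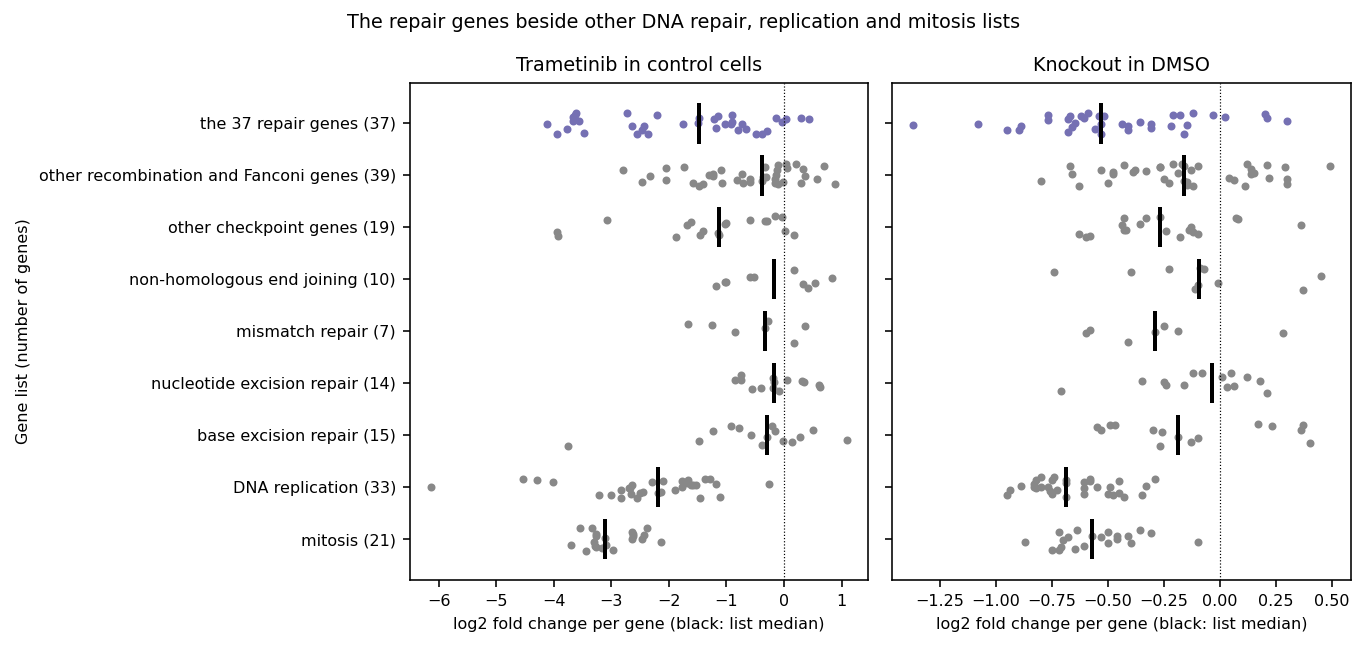
log2 fold change of each gene (points) in the 37 repair genes and 8 other lists, with trametinib in control cells on the left and TADA2B knockout in DMSO on the right; black bars are list medians. The 37 genes have a median of -1.48 on the left and -0.53 on the right, below the excision repair and end-joining lists in both and above DNA replication.

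Few of these genes separated the drugs. Comparing vemurafenib with trametinib in control cells, 4 of 37 genes were higher and 1 was lower, against 8.78% and 7.56% of all genes tested, a share near the background. FANCI was 1.16-fold higher with vemurafenib (log2 0.21 ± 0.042, adjusted p = 0.000122), the call among the 5 that held in every alternative. FANCB was 1.37-fold higher (0.46 ± 0.13), and the call was lost without replicate 2 in trametinib (0.402) or replicate 1 in vemurafenib (0.38). PALB2 was 1.11-fold higher (0.15 ± 0.046) and lost the call without replicate 1 in trametinib (0.12), or without replicate 1 (0.138) or 3 (0.123) in vemurafenib. CHEK1 was 1.08-fold higher (0.11 ± 0.041, adjusted p = 0.0483) and lost the call in 10 alternatives, with values from 0.099 to 0.131; these included leaving out replicate 1 or 2 in trametinib or any 1 of the 3 libraries in vemurafenib. RAD54B was 1.39-fold lower (-0.47 ± 0.14) and lost the call without replicate 3 in trametinib (-0.418), or without replicate 1 (-0.45) or 2 (-0.438) in vemurafenib. BRCA1 (-0.04 ± 0.046), BRCA2 (-0.05 ± 0.099), RAD54L (0.09 ± 0.14), FANCD2 (-0.01 ± 0.067), ATM (0.06 ± 0.048) and ATR (0.04 ± 0.034) did not pass the test, which does not show that the drugs act alike on them.

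TADA2B knockout was accompanied by lower levels of most of these genes in DMSO. Of 37 genes, 32 were lower and 3 higher in the mean of both guides, against 28.6% and 29.3% of all genes tested, and the median log2 fold change was -0.53 against 0.0 over all genes. Only EXO1 and FANCB, 2 of 37, were lower by 2-fold or more, against 899 of all 25199 genes tested, a share near the background. Guide 1 alone gave 32 lower and 2 higher, guide 2 gave 30 lower and 3 higher, and 30 genes were lower with each guide. Shares over all genes for each guide alone in DMSO are not reported here. DNA replication genes were lower too (33 of 33, median -0.69), as were mitosis genes (21 of 21, median -0.57), and MKI67 went from 619 CPM ± 17.4 (n = 3) in control libraries to 389 ± 1.63 for guide 1 and 423 ± 5.84 for guide 2. The share of that change in the results for the repair genes was not tested.

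FANCB was the most lowered by the knockout in DMSO, from 24.5, 23.0 and 24.2 CPM in control libraries to 9.77, 8.7 and 9.36 with guide 1 and 9.49, 8.99 and 9.07 with guide 2, 38.6% of control (log2 -1.37 ± 0.076, adjusted p = 6.58e-21). EXO1 went from 78.9, 78.2 and 80.1 CPM to 35.6, 36.9 and 37.3 with guide 1 and 39.2, 37.1 and 37.6 with guide 2, to 47.2% of control (-1.08 ± 0.042, adjusted p = 3.87e-27). In both genes the libraries of the guides lay close together and far from control. BLM (-0.95 ± 0.061) and XRCC2 (-0.9 ± 0.061) followed, with RAD54L at 53.8% of control (-0.89 ± 0.07). FANCD2 fell to 58.5% (-0.77 ± 0.046), BRCA2 to 63.9% (-0.65 ± 0.055) and BRCA1 to 77.7% (-0.36 ± 0.035). The checkpoint kinases ATM (-0.31 ± 0.041), ATR (-0.22 ± 0.029) and CHEK1 (-0.12 ± 0.032, adjusted p = 0.00114) were lower by less.

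The 3 genes that were higher in knockout cells in DMSO were RAD51D, RAD50 and NBN. RAD51D stood at 19.1, 18.0 and 20.0 CPM in control libraries, at 22.8, 23.3 and 23.0 with guide 1 and at 23.9, 24.4 and 23.1 with guide 2, with no overlap (1.23-fold, log2 0.3 ± 0.043, adjusted p = 5.97e-08). NBN stood at 156, 154 and 150.0 CPM with guide 1 and 158, 160.0 and 155 with guide 2, all above the control libraries at 132 to 137 CPM (1.15-fold, 0.2 ± 0.028). RAD50 was 1.16-fold higher (0.21 ± 0.073, adjusted p = 0.012), and the call did not hold when control DMSO replicate 3 was left out (0.186) or with guide 1 alone (0.173). MRE11, named here after its value was seen, went the other way from these partners, to 75.0% of control (-0.41 ± 0.04).

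In knockout cells the drugs also lowered 33 genes each, with smaller median falls than in control cells. With trametinib 33 of 37 genes fell and 3 rose, against 34.3% and 37.2% of all genes, with a median log2 fold change of -0.95 and 17 falls of at least 2-fold against 8.62% of all genes. With vemurafenib 33 fell and 3 rose, against 33.1% and 36.0%, with a median of -0.87 and 18 falls of at least 2-fold against 7.42%. BLM fell furthest with each drug (-3.03 ± 0.065 and -2.73 ± 0.064), and RAD54L fell to 12.4% with trametinib (-3.01 ± 0.075) and 17.3% with vemurafenib (-2.53 ± 0.072). RAD51AP1 (-2.87 ± 0.063) and FANCB (-2.75 ± 0.083) were among the 4 largest falls with trametinib. XRCC2 (-2.71 ± 0.063) and FANCB (-2.55 ± 0.082) were among the 4 largest with vemurafenib. BRCA2 fell 6.3-fold (-2.66 ± 0.055) and 5.13-fold (-2.36 ± 0.054), FANCD2 4.16-fold (-2.06 ± 0.044) and 3.56-fold (-1.83 ± 0.043), and BRCA1 2.98-fold (-1.58 ± 0.031) and 2.55-fold (-1.35 ± 0.031). CHEK1 fell 1.96-fold (-0.97 ± 0.027) and 1.83-fold (-0.87 ± 0.027), ATR by -0.13 ± 0.024 and -0.19 ± 0.024, and ATM did not pass the test (0.02 ± 0.034 and 0.01 ± 0.034). The trametinib call of ATR was lost with guide 2 alone (-0.073).

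RAD50 (log2 0.38 ± 0.057 with trametinib, 0.34 ± 0.057 with vemurafenib) and FANCF (0.29 ± 0.043 and 0.27 ± 0.043) rose in knockout cells as they did in control cells. RAD51B rose in knockout cells, 1.38-fold with trametinib (0.47 ± 0.072, adjusted p = 1.25e-07) and 1.33-fold with vemurafenib (0.41 ± 0.073). It went from 3.8, 3.99 and 4.06 CPM with guide 1 in DMSO to 5.83, 5.39 and 5.89 in trametinib, and from 3.92, 5.17 and 3.67 with guide 2 to 5.65, 5.32 and 6.05. All trametinib libraries of the knockout lay above all its DMSO libraries. In vemurafenib RAD51B stood at 5.1, 5.46 and 4.99 CPM with guide 1 and 5.64, 5.82 and 5.86 with guide 2, where the guide 1 libraries overlapped the highest DMSO library of guide 2.

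**Figure D4:**
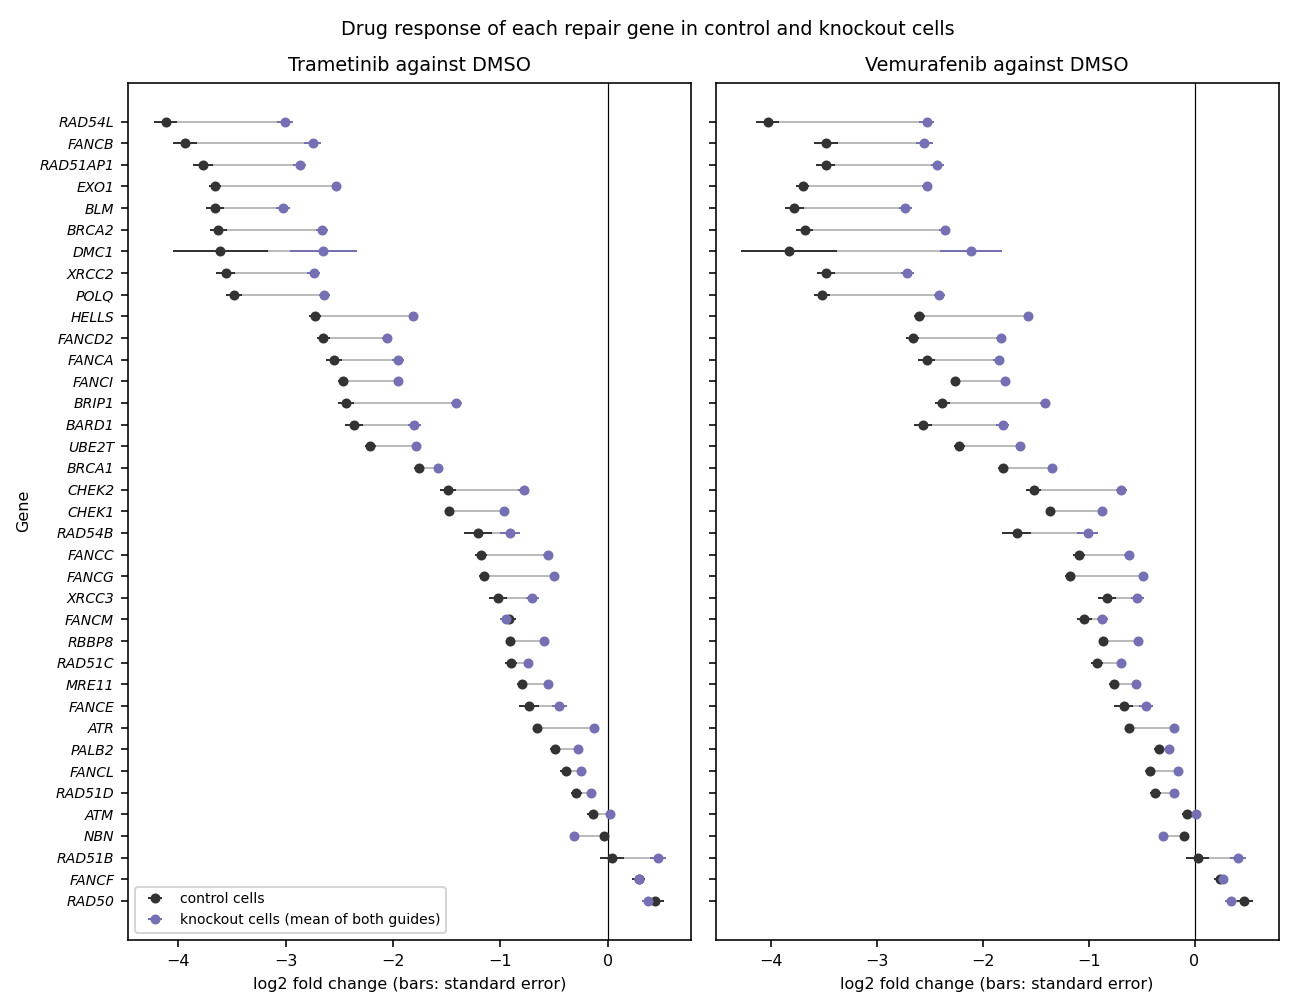
log2 fold change with standard error of each gene under trametinib (left) and vemurafenib (right) in control cells (black) and knockout cells (purple, mean of both guides), ordered by the trametinib response in control cells. The purple points lie to the right of the black points for most genes, with the exceptions of NBN, RAD50 and, with trametinib, FANCM.

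The difference between the drug responses was tested as an interaction, the knockout response from which the control response was subtracted. With trametinib the response was higher in knockout cells for 28 of 37 genes and lower for 1, against 20.8% and 23.2% of all genes tested, with a median difference of 0.52 log2 units against -0.02 over all genes. With vemurafenib it was higher for 30 and lower for 1, against 20.0% and 22.4%, with a median of 0.49 against -0.01. For a gene that fell in control cells, a positive difference means a smaller fall in knockout cells. A lower level of knockout cells in DMSO gives such a difference even where the levels under drug are alike. FANCB had the largest difference with trametinib (1.19 ± 0.14, adjusted p = 1.6e-09), followed by EXO1 (1.13 ± 0.072), RAD54L (1.11 ± 0.14) and BRIP1 (1.04 ± 0.087). BRCA2 differed by 0.97 ± 0.099, FANCD2 by 0.59 ± 0.075, ATR by 0.53 ± 0.042, CHEK1 by 0.5 ± 0.048 and BRCA1 by 0.19 ± 0.053. With vemurafenib RAD54L (1.49 ± 0.13), BRCA2 (1.32 ± 0.099) and EXO1 (1.18 ± 0.073) differed most after the sparsely counted DMC1 (1.72 ± 0.57, adjusted p = 0.011), whose call did not hold when control vemurafenib replicate 3 was left out (1.436) or with guide 2 alone (1.29).

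The exception in both drugs was NBN, whose response was lower in knockout cells (log2 -0.28 ± 0.04, adjusted p = 7.28e-08, and -0.2 ± 0.04, adjusted p = 4.71e-05). From 150.0 to 160.0 CPM in knockout DMSO libraries, NBN went to 118, 120.0 and 125 with guide 1 and 132, 129 and 127 with guide 2 in trametinib, and all 6 lay below its knockout DMSO range. The interaction of ATM with trametinib (0.15 ± 0.059, adjusted p = 0.0328) was lost with a filter of 1 CPM (0.149) and with guide 1 alone (0.068). It was also lost, with values from 0.102 to 0.147, when any 1 of 8 libraries was left out: control DMSO 1, control trametinib 2, guide 1 DMSO 2 or 3, guide 1 trametinib 1, guide 2 DMSO 1 or 2, or guide 2 trametinib 1. The interaction of ATM with vemurafenib did not pass the test (0.09 ± 0.059, adjusted p = 0.246). DNA replication genes had 30 of 33 differences higher with trametinib (median 0.59) and mitosis genes 21 of 21 (median 0.48). MKI67 differed by 0.41 ± 0.058 with trametinib and 0.37 ± 0.057 with vemurafenib. All these differences share the DMSO libraries with the knockout effect in DMSO, so they are not independent of it.

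Under drug, knockout cells were not lower than control cells as a rule. In trametinib 11 of 37 genes were higher in knockout cells and 11 lower, against 27.1% and 28.8% of all genes tested, shares near the background. The median log2 difference was 0.01. Of the 22 called genes, 10 had all knockout libraries apart from all control libraries, and in the others they overlapped. The guides differed in their counts here. Guide 1 gave 7 higher and 11 lower, against 23.6% and 25.8% of all genes. Guide 2 gave 16 higher and 6 lower, against 27.2% and 27.2%. The calls shared by both guides were 7 higher and 5 lower. The share of such calls over all genes was not computed, so these counts are not a result about these genes. Higher in trametinib were RAD51B (0.44 ± 0.089), RAD51D (0.44 ± 0.044), BRIP1 (0.41 ± 0.068) and HELLS (0.39 ± 0.05). HELLS stood at 11.1, 11.0 and 9.94 CPM in control libraries, at 11.4, 12.5 and 12.2 with guide 1 and at 17.1, 15.9 and 15.9 with guide 2, so the guide 2 libraries lay highest, apart from both others. RAD51D stood at 15.9, 15.6 and 15.3 CPM in control libraries, at 19.5, 20.9 and 20.8 with guide 1 and at 22.3, 22.7 and 20.8 with guide 2, higher with each guide.

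The kinases ATR and CHEK1 changed side with treatment. ATR, lower in knockout cells in DMSO, was higher in trametinib (log2 0.32 ± 0.03, adjusted p = 6.49e-13), at 80.5, 81.8 and 83.2 CPM with guide 1 and 85.1, 79.0 and 80.9 with guide 2 against 64.2 to 68.3 CPM in control libraries. CHEK1 was higher as well (0.38 ± 0.036), at 29.3, 30.3 and 29.7 CPM with guide 1 and 36.5, 35 and 36.2 with guide 2 against 24.5 to 25.9 CPM. Neither gene's knockout libraries overlapped control in trametinib. In DMSO the difference of CHEK1 was small (-0.12 ± 0.032) and its libraries did overlap, with a guide 2 library at 68.7 CPM and a control library at 68.1. The ATR libraries did not overlap there. BRCA2 was 1.25-fold higher (0.32 ± 0.082), a call lost with guide 1 alone (0.129), and RAD54L did not pass the test (0.21 ± 0.12, adjusted p = 0.124) except with guide 2 alone (0.505).

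Lower in knockout cells in trametinib were RAD54B (log2 -0.38 ± 0.12), FANCM (-0.33 ± 0.063), BLM (-0.32 ± 0.094) and FANCE (-0.26 ± 0.083), with BRCA1 (-0.18 ± 0.039), FANCD2 (-0.18 ± 0.058) and ATM (-0.15 ± 0.041) by less. BLM lost its call when control trametinib replicate 1 was left out (-0.243) and with guide 2 alone (-0.218). FANCE lost it when control trametinib replicate 1 (-0.202) or 3 (-0.189) was left out and with guide 1 alone (-0.209), and FANCD2 with guide 2 alone (-0.113).

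In vemurafenib 14 of 37 genes were higher in knockout cells and 5 lower, against 27.3% and 28.3% of all genes tested, with a median log2 difference of 0.08. Of the 19 called genes, 14 had all knockout libraries apart from all control libraries. Among called genes BRCA2 was the most raised, at 4.37, 4.61 and 3.67 CPM with guide 1 and 5.05, 4.4 and 5.0 with guide 2 against 2.98, 2.75 and 2.72 in control libraries (1.59-fold, 0.67 ± 0.082, adjusted p = 9.27e-10). The sparsely counted DMC1 had a larger value that did not pass the test (1.04 ± 0.49, adjusted p = 0.067). RAD54L was 1.51-fold higher (0.6 ± 0.11), HELLS 1.42-fold (0.5 ± 0.049) and RAD51AP1 1.41-fold (0.49 ± 0.092). These levels were still far under those of either cell type in DMSO. CHEK1 (0.37 ± 0.035) and ATR (0.22 ± 0.03) were higher as in trametinib, and FANCD2 did not pass the test (0.05 ± 0.058) except when control vemurafenib replicate 1 was left out (0.148). BRCA1 rose least of the called genes named here, 1.07-fold (0.09 ± 0.04, adjusted p = 0.0399), and the call did not hold in 7 alternatives with values from 0.061 to 0.107, among them leaving out control replicate 1 or 2, guide 1 replicate 2 or guide 2 replicate 3 in vemurafenib. FANCB (-0.44 ± 0.12), FANCE (-0.33 ± 0.084), ATM (-0.22 ± 0.041) and MRE11 (-0.21 ± 0.041) were lower; FANCB lost its call with guide 2 alone (-0.3).

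**Figure D5:**
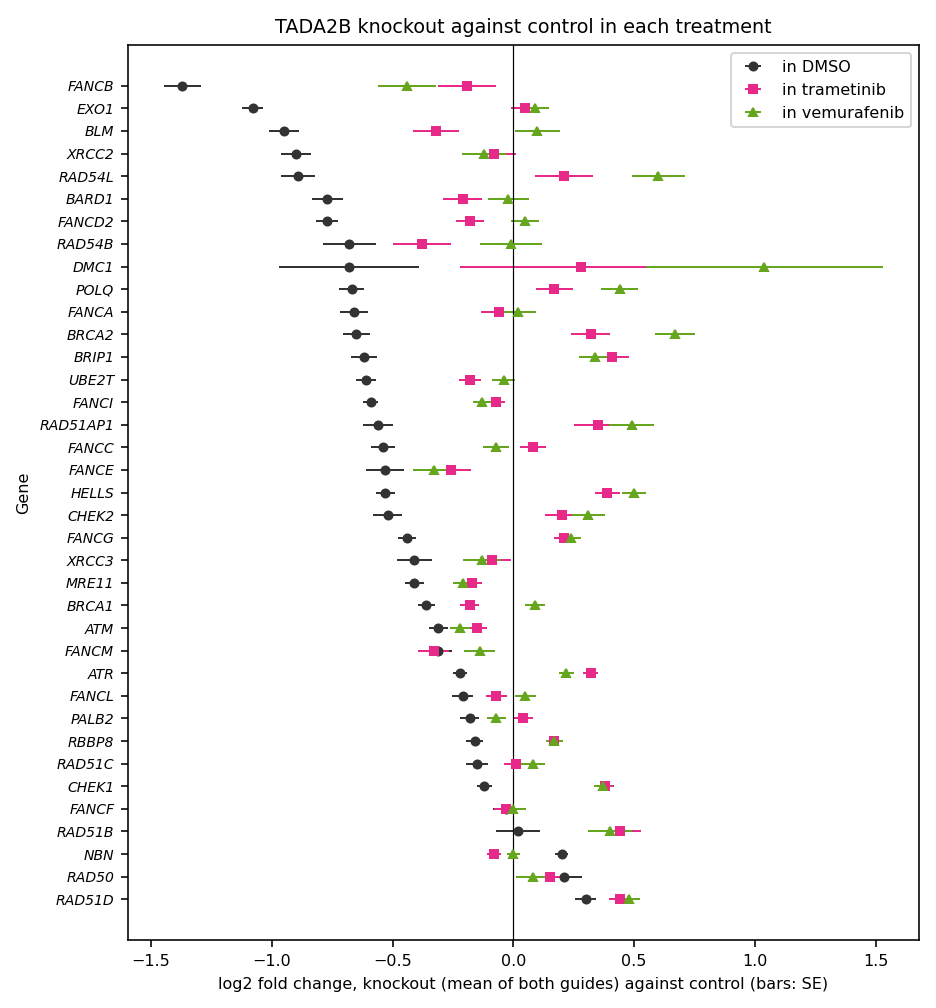
log2 fold change with standard error of TADA2B knockout (mean of both guides) against control in DMSO (black circles), trametinib (pink squares) and vemurafenib (green triangles) for each of the 37 genes, ordered by the value in DMSO. The black points are mostly left of 0, with a median of -0.53, and the drug points lie around 0, with medians of 0.01 and 0.08.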

How the data were processed

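Polyadenylated RNA from 27 libraries in 9 groups of 3 was isolated (QIAGEN RNeasy Plus Mini) and made into stranded libraries with a KAPA mRNA kit, per the labels' protocols. The authors deposited raw counts per gene; bcl2fastq, HISAT2, HTSeq and the build hg38 are named per the submitters' processing notes. No version, annotation release or strand setting of the counting was given in the sources used here. GENCODE release 29 matched all 58721 identifiers, which gave symbols, positions and transcript lengths.

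Counts were tested with edgeR 4.0.16 (quasi-likelihood, robust, TMM scaling; R 4.3.3) on all 27 libraries, with 1 mean per group (9 groups) and 18 residual degrees of freedom. Its filter left 25199 genes, and a gene was called at an adjusted p under 0.05 (Benjamini-Hochberg over all genes tested). Knockout is the mean of both guides. Library totals were 67502300 to 92513726 counts, TMM factors were 0.866 to 1.09, and no libraries agreed within sampling noise (chi-square per degree of freedom 3.05 to 13.2). The TMM factors followed the groups. They were 0.866 to 0.884 in control DMSO, 0.964 to 1.0 in control libraries given a drug, 0.938 to 0.976 in knockout DMSO and 1.04 to 1.09 in knockout libraries given a drug. Small changes therefore depend on this scaling. In control cells, per library total alone, mean NBN with vemurafenib and mean ATM with trametinib were not lower than in DMSO. The fit was also run on simulated counts in which few genes changed, and in 1 group only. That setting is unlike these data, so it does not check the scaling used here. Alternatives were DESeq2 1.42.0 and its size factors, limma 3.58.1 voom, other filters, each guide alone, only the groups compared, a replicate block and each library left out in turn.

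The 37 members and the comparison lists were chosen with earlier results of these data known. By rule, every member could be named with its level and its drug responses in control cells; elsewhere the 4 called members with the largest rise and the 4 with the largest fall were named, with BRCA1, BRCA2, RAD54L, FANCD2, ATM, ATR and CHEK1, and from each comparison list the 2 called genes with the largest change, given here for trametinib in control cells. The named genes of the mismatch repair and nucleotide excision repair lists are not reported here. Promoters are those of the 2 members with the largest falls and the 2 with the smallest changes.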

Additional observations from a re-analysis of the deposited data

Results flagged for a closer look

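The response to a drug differed between control and knockout cells for the named genes below, by edgeR's interaction test with adjusted p under 0.05; values are the knockout response minus the control response in log2 units. With trametinib the difference was 1.19 for FANCB, 1.13 for EXO1, 1.11 for RAD54L and 1.04 for BRIP1. BRCA2 differed by 0.97, FANCD2 by 0.59, ATR by 0.53, CHEK1 by 0.5, BRCA1 by 0.19 and ATM by 0.15; the ATM call was lost in 10 alternatives, with values from 0.068 to 0.149. NBN differed the other way, by -0.28. Under trametinib itself, the knockout did not pass the test against control for FANCB (-0.19 ± 0.12), EXO1 (0.05 ± 0.058) or RAD54L (0.21 ± 0.12). In DMSO these genes were lower in knockout cells (-1.37, -1.08 and -0.89). BRIP1 was higher in knockout cells under trametinib (0.41 ± 0.068). With vemurafenib the difference was 1.72 for DMC1, 1.49 for RAD54L, 1.32 for BRCA2 and 1.18 for EXO1. FANCD2 differed by 0.82, CHEK1 by 0.49, BRCA1 by 0.46 and ATR by 0.43, and NBN by -0.2. DMC1 had few reads, and its call was lost with guide 2 alone (1.29) and when control vemurafenib replicate 3 was left out (1.436).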

How the results depend on the processing

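Of 173 values given for named genes, 158 were called; 142 of these kept their call under every alternative that was run, 16 lost it under at least 1, and none changed direction. With at least 1 CPM in 3 libraries, the median log2 fold change of the members was -1.307 with trametinib and -1.409 with vemurafenib in control cells, where DMC1 did not pass the filter. Leaving out 1 library at a time moved the vemurafenib median between -1.595 and -1.451, and for vemurafenib against trametinib it gave 1 to 4 members higher and 0 to 1 lower. With guide 1 alone, the trametinib median in knockout cells was -1.025, the knockout in trametinib had 7 members higher and a median of -0.071, and the interaction median with trametinib was 0.468. With guide 2 alone these medians were -0.865 in knockout cells with trametinib, -0.472 for the knockout in DMSO and 0.58 for the interaction, with 6 members lower in trametinib and 3 lower in vemurafenib. The cause was not tested. Same-numbered libraries did not deviate together as a rule (correlations from -0.353 to 0.347, median 0.00463, with 12 of 27 libraries nearest their own number). The numbers were therefore not used as pairs, but this cannot exclude a shared culture or day. With a replicate block, vemurafenib against trametinib had 3 members higher instead of 4, and other member counts stayed equal. Depth limits DMC1 most.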
